A study of Homo sapiens with 9 samples.

Results

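The 9 long noncoding RNAs SCHLAP1, PCAT1, PCAT14, PCA3, PCGEM1, DRAIC, PVT1, MALAT1 and NEAT1 were followed in VCaP cells with less KMT2C. They were taken by gene name from a table of 60612 genes, 16857 of which are long noncoding RNA genes with no protein-coding transcript, and all 9 names were found. VCaP is an established human prostate cancer cell line that carries the TMPRSS2-ERG fusion, and KMT2C encodes a histone methyltransferase that acts on lysine 4 of histone H3. The cells had been transfected for 4 days with KMT2C siRNA 1, with KMT2C siRNA 2 or with a control siRNA, and RNA was sequenced from 3 libraries per group. All groups are the same cell line, and the control cells had also been transfected. Neither the sequence of an siRNA nor the origin of the replicates (separate cultures or not) is stated, so a p-value here speaks of spread among libraries that may be technical. Both siRNAs are set against the same 3 control libraries.

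Long noncoding RNAs are transcribed and spliced much like messenger RNAs but are not translated into a known protein, and many are found in few cell types. SCHLAP1, PCAT1, PCAT14, PCA3 and PCGEM1 were all described as RNAs of prostate or prostate cancer, and PCA3 is measured in urine as a marker of the disease. DRAIC was described as an RNA that falls when prostate cancer cells become androgen-independent. PVT1 lies beside the MYC oncogene, while MALAT1 and NEAT1 are abundant nuclear RNAs of most cell types, found in nuclear speckles and forming the scaffold of paraspeckles.

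Sequence is shown for SCHLAP1 and PCA3, which rested on few fragments and lie partly opposite exons of other genes, and for DRAIC, which fell with both siRNAs and holds an RNA of the opposite strand within its span. These are 60-base stretches, 5′ to 3′, from GENCODE release 29 transcripts on GRCh38, in which no run of 31 bases occurs in the transcripts of another gene. The SCHLAP1 stretch is bases 42 to 101 of a 1436-base transcript, the DRAIC stretch bases 1 to 60 of a 9011-base transcript, and the PCA3 stretch bases 1 to 60 of a 3922-base transcript.
SCHLAP1: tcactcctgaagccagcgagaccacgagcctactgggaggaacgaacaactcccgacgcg
DRAIC: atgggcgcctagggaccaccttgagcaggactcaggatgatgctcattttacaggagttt
PCA3: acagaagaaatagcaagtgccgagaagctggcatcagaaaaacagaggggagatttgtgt
Runs of 31 bases were also searched, on both strands, in the transcripts of other genes. Over whole genes, the share found there was 18.9% for SCHLAP1, 12.7% for PCA3 and 1.66% for DRAIC. It was 15.3% for PCAT1, 11.2% for PVT1, 7.60% for PCGEM1, 6.83% for PCAT14, 4.94% for MALAT1 and 3.65% for NEAT1. Reads from such runs could have been assigned to either gene. For a run found only on the opposite strand, that holds only if the counting ignored strand.

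Levels are in FPKM, a fragment count divided by the length given to the gene and by library depth. They are given as mean ± SD with n = 3, or per library in replicate order. The deposited counts are estimates in which about 3.85 counts stand for 1 fragment, and the libraries held 58462215 to 70726213 counts each. Log2 fold changes, each ± SE, were estimated by edgeR's quasi-likelihood test on the counts of all 9 libraries, with Benjamini-Hochberg adjustment over all tested genes and a threshold of 0.05. KMT2C itself was at 1.54, 1.80 and 2.28 FPKM with siRNA 1, at 1.72, 1.64 and 1.73 FPKM with siRNA 2, and at 13.7, 12.1 and 12.9 FPKM with control siRNA. KMT2C fell with both siRNAs (log2 fold change -2.81 ± 0.13 and -2.98 ± 0.13, adjusted p = 4.56e-06 and 8.76e-07). All 10 markers of VCaP cells were above 1 FPKM, and all leukocyte, endothelial, fibroblast and retina markers were below 1 FPKM in every library. The summed level of the 3 basal epithelial markers was 6.27 to 7.86 FPKM with siRNA 1, 0.719 to 0.886 FPKM with siRNA 2 and 2.37 to 2.63 FPKM with control siRNA, and 2 of the 3 stayed below 1 FPKM. The summed level of 3 neuroendocrine markers, 1 of them below 1 FPKM throughout, was 1.77 to 2.5 FPKM with siRNA 1, 3.11 to 3.79 FPKM with siRNA 2 and 2.31 to 2.84 FPKM with control siRNA. That of the 10 VCaP markers was 739 to 761 FPKM with siRNA 1, 839 to 849 FPKM with siRNA 2 and 1070 to 1120 FPKM with control siRNA. Mitochondrial genes took 9.02% ± 0.698 of the counts with siRNA 1, 12.0% ± 0.119 with siRNA 2 and 10.6% ± 0.501 with control siRNA. The part of these in the results below was not tested.

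With control siRNA PCAT14 was the highest of the 9 RNAs, at 97.0 ± 2.18 FPKM, and MALAT1 was next at 51.4 ± 14.2 FPKM. NEAT1 followed at 3.53 ± 2.68 FPKM and DRAIC at 2.55 ± 0.651 FPKM, and the libraries of these 2 overlapped. SCHLAP1 came next at 1.02 ± 0.0573 FPKM, then PCAT1 at 0.808 ± 0.0978 FPKM and PVT1 at 0.440 ± 0.0344 FPKM. PCA3 stood at 0.00796 ± 0.000869 FPKM, and PCGEM1 had no count. Such an order depends on the length behind each FPKM. That length was 1.44 to 1.45 kb for SCHLAP1, 16.9 kb for PCAT1 and 25.4 to 25.7 kb for PVT1. About 89, 824 and 679 fragments stood behind the control values of these RNAs. With siRNA 2 MALAT1 was first and PCAT14 second, and with siRNA 1 PCAT1 ranked behind only these 2, at 5.32 ± 0.114 FPKM. Genes with at least 1 FPKM in at least 3 libraries were tested, 12830 in all. SCHLAP1, PCAT1, PCAT14, DRAIC, MALAT1 and NEAT1 passed, while PVT1, PCA3 and PCGEM1 did not. PCAT1 passed through the 6 libraries of the siRNA groups alone, DRAIC through the control libraries and 1 siRNA 1 library, and SCHLAP1 through 5 libraries of the siRNA 2 and control groups. PVT1 and PCA3 are therefore given from a fit with edgeR's own lower filter on counts (filterByExpr), which tested 21150 genes and all of the RNAs but PCGEM1.

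**Figure D1:**
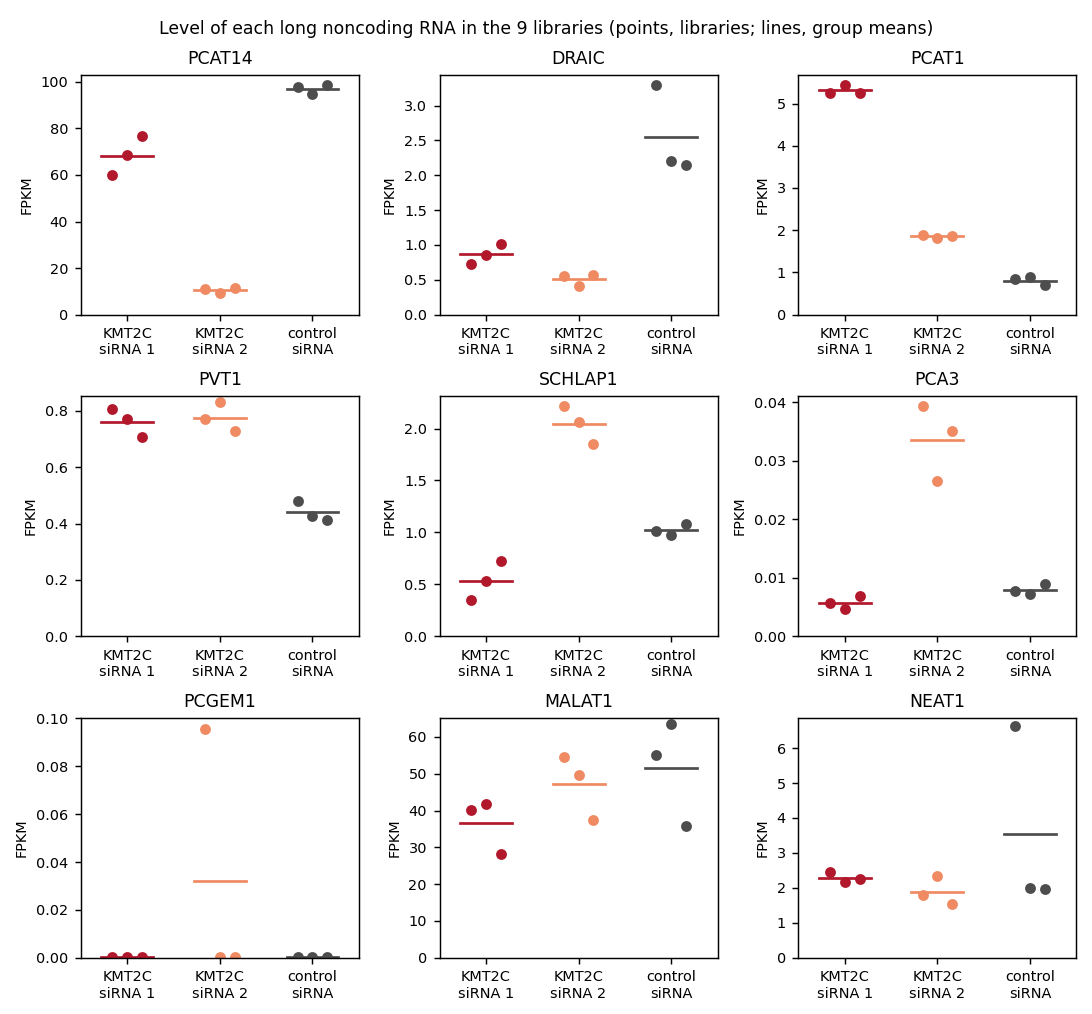
FPKM of each of the 9 long noncoding RNAs (vertical axes, linear, from 0, each panel on its own scale) in the libraries of KMT2C siRNA 1, KMT2C siRNA 2 and control siRNA; points are libraries and lines are group means. PCAT14 and DRAIC are lower and PCAT1 and PVT1 higher with both siRNAs, SCHLAP1 lies on opposite sides of control, and the libraries of MALAT1 and NEAT1 overlap between groups.

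Of the 6 RNAs that passed, 4 passed the test with siRNA 1, 1 higher and 3 lower, against 41.7% of all tested genes, 21.2% higher and 20.5% lower. With siRNA 2 it was again 4 of 6, 2 higher and 2 lower, against 49.3% of all tested genes, 24.4% higher and 24.9% lower. Among the 771 tested long noncoding RNA genes the share was 27% with siRNA 1 and 42.7% with siRNA 2. The median log2 fold change of the 6 was -0.58 with siRNA 1 and -0.56 with siRNA 2, that of all tested genes 0.01 and 0.02, and that of the long noncoding RNA genes 0.11 and 0.21. With the lower filter 5 of 8 passed the test with siRNA 1, where 27.5% of all genes did, and 6 of 8 with siRNA 2, where 35.4% did. Since several of the 6 passed the filter through the group where they were high, these counts are a description only. Over all 9, the libraries of 6 did not overlap between either siRNA and control, against 53.1% of tested genes with siRNA 1 and 62.8% with siRNA 2. PVT1 and PCA3 are among these 6 but lie below the filter behind those shares. The siRNA 1 and control libraries of PCA3 held only about 2 to 3 fragments each, so their separation carries little weight.

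**Figure D2:**
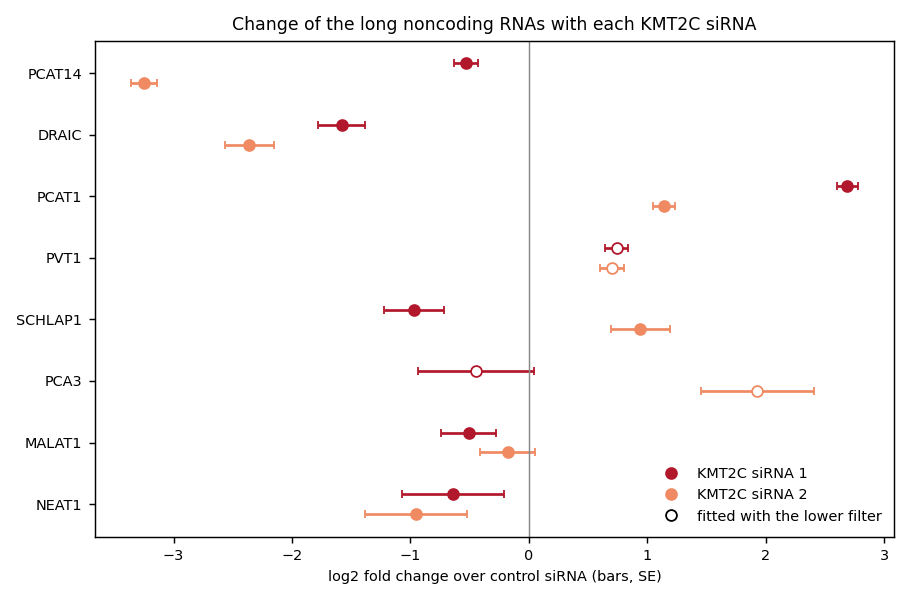
Log2 fold change over control siRNA (horizontal axis; bars are SE) of 8 long noncoding RNAs with KMT2C siRNA 1 and KMT2C siRNA 2; open points come from the fit with the lower filter. PCAT14 is at -0.53 with siRNA 1 and -3.25 with siRNA 2, PCAT1 at 2.69 and 1.14, and SCHLAP1 at -0.97 and 0.94.

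Among the RNAs described in prostate cancer, PCAT14 had the highest level and fell with both siRNAs. PCAT14 (ENSG00000280623, GRCh38 chromosome 22, 23536881 to 23547167, plus strand) is a prostate-restricted RNA reported to respond to androgen and to be lower in metastatic disease. It was at 59.9, 68.5 and 76.7 FPKM with siRNA 1, at 10.8, 9.34 and 11.6 FPKM with siRNA 2, and at 97.8, 94.6 and 98.7 FPKM with control siRNA. No library of 1 group reached those of another, with siRNA 2 by far the lowest. In bulk RNA such as this, fewer cells that express an RNA and less of it per cell cannot be told apart. It fell by 0.53 ± 0.10 on the log2 scale with siRNA 1 (adjusted p = 0.00349) and by 3.25 ± 0.11 with siRNA 2 (adjusted p = 2.89e-07), which is 1.44-fold and 9.52-fold lower. The values with siRNA 1 and siRNA 2 differed by 2.72 ± 0.11 on the log2 scale (adjusted p = 1.65e-06). Only 0.834% of all tested genes had a lower log2 fold change with siRNA 2, against 14.8% with siRNA 1. About 20431 fragments with siRNA 1, 3162 with siRNA 2 and 28782 with control siRNA stood behind these values.

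DRAIC (ENSG00000245750, chromosome 15, 69462921 to 69842964, plus strand) also fell with both siRNAs. DRAIC is reported to bind the IκB kinase complex and to restrain NF-κB signalling, and the forkhead factor FOXA1 is reported to induce it. It was at 0.722, 0.857 and 1.01 FPKM with siRNA 1, at 0.554, 0.414 and 0.569 FPKM with siRNA 2, and at 3.30, 2.20 and 2.15 FPKM with control siRNA. Every control library was above every siRNA library, and control replicate 1 stood above the other control libraries. It fell by 1.58 ± 0.20 on the log2 scale with siRNA 1 (adjusted p = 0.000412) and by 2.36 ± 0.21 with siRNA 2 (adjusted p = 2.84e-05), 2.99-fold and 5.12-fold lower. The 2 siRNAs differed by 0.78 ± 0.20 (adjusted p = 0.0141), a call that was lost on log2(FPKM + 1) values with limma (adjusted p = 0.0998). DRAIC has 73 transcripts in the table, and its FPKM was scaled to a length of 31.3 to 31.6 kb, against 18461 bases of exon in GENCODE release 29. The FPKM of DRAIC therefore depends on that gene model, and its fold changes were taken from counts.

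The RefSeq promoter of DRAIC, a window of 300 bases around its start, is shown because DRAIC fell with both siRNAs and a forkhead factor is reported to induce it. It lies at chr15:69561470-69561769 on GRCh38.p14, plus strand, inside the span of the gene in the table, and capitals mark its match to the forkhead core TGTTTA, searched on both strands.
DRAIC promoter: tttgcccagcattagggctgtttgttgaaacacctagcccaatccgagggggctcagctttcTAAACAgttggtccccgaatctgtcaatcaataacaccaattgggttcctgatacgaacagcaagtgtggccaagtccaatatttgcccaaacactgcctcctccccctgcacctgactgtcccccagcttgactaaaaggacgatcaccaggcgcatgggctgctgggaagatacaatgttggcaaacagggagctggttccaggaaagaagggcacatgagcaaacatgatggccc
The match starts at base 63 of the window, and 12.3% of 35116 RefSeq promoters of this length hold at least 1. FOXA1 itself averaged 89.6 FPKM with siRNA 1, 116 FPKM with siRNA 2 and 125 FPKM with control siRNA. DRAIC was lowest with siRNA 2, and the part of FOXA1 in its level was not tested. The letters of the androgen receptor half-site AGAACA, held by 14.8% of promoters, and of the ETS core GGAAGT, held by 22.8%, are not in this window on either strand. The window holds 5 CpG dinucleotides, where the median promoter holds 14, and 29.6% of promoters hold fewer. RefSeq promoters were also matched for PCA3, PCGEM1 and MALAT1.

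PCAT1 (ENSG00000253438, chromosome 8, 126556323 to 127399211, plus strand), an RNA of the gene desert upstream of MYC reported to promote proliferation, rose with both siRNAs. It was at 5.24, 5.45 and 5.26 FPKM with siRNA 1, at 1.89, 1.82 and 1.87 FPKM with siRNA 2, and at 0.837, 0.888 and 0.699 FPKM with control siRNA. The 3 groups were well apart and the libraries within each lay close together. It rose by 2.69 ± 0.09 on the log2 scale with siRNA 1 (adjusted p = 1.12e-06) and by 1.14 ± 0.09 with siRNA 2 (adjusted p = 1.35e-05), 6.44-fold and 2.21-fold higher. With siRNA 1 99.8% of all tested genes had a lower log2 fold change, and with siRNA 2 94.9%. The value with siRNA 1 was above that with siRNA 2 by 1.54 ± 0.09 (adjusted p = 5.65e-06). With the lower filter, which did not depend on FPKM, the 2 values were 2.67 and 1.09.

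The table gives PCAT1 32 transcripts that span other genes of the region. In GENCODE release 29, 6.90% of its exon bases lie opposite exons of another gene and 5.03% lie in exons of another gene on the same strand, chiefly LRATD2 and POU5F1B. LRATD2 was at 15.4, 11.1 and 10.4 FPKM with siRNA 1, at 11.5, 7.10 and 6.64 FPKM with siRNA 2, and at 11.6, 5.14 and 11.0 FPKM with control siRNA, and did not pass the test with either (adjusted p = 0.373 and 0.666). POU5F1B, an OCT4-related retrogene, was at 0.264, 0.738 and 0.434 FPKM with siRNA 1, at 0.0001 (no counts), 0.201 and 0.312 FPKM with siRNA 2 and at 0.253, 0.250 and 0.283 FPKM with control siRNA. The groups overlapped in both of these genes, which were looked up after the values of PCAT1 were seen. Whether the counting used strand is not stated in the sources used here, so reads of overlapping genes cannot be told apart.

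PVT1 (ENSG00000249859, chromosome 8, 127794526 to 128187101, plus strand), a host of microRNAs that is often gained together with MYC in cancer, was the second RNA to rise with both siRNAs. It was at 0.807, 0.772 and 0.707 FPKM with siRNA 1, at 0.770, 0.832 and 0.728 FPKM with siRNA 2, and at 0.479, 0.428 and 0.414 FPKM with control siRNA. The siRNA groups overlapped each other and both lay above every control library. In the fit with the lower filter it rose by 0.74 ± 0.10 on the log2 scale with siRNA 1 (adjusted p = 0.00059) and by 0.70 ± 0.10 with siRNA 2 (adjusted p = 0.000491), 1.68-fold and 1.63-fold higher. The difference between the siRNAs was 0.04 ± 0.10 (adjusted p = 0.806). Its FPKM was scaled to 25.4 to 25.7 kb, against 5493 bases of exon in GENCODE release 29, so levels below 1 FPKM rested on about 1187, 1205 and 679 fragments in the siRNA 1, siRNA 2 and control groups.

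SCHLAP1 moved in opposite directions with the 2 siRNAs. SCHLAP1 (ENSG00000281131, chromosome 2, 180692104 to 180916939, plus strand) is high in aggressive prostate cancers and is reported to interact with the SWI/SNF chromatin remodelling complex. It was at 0.349, 0.528 and 0.721 FPKM with siRNA 1, at 2.22, 2.06 and 1.85 FPKM with siRNA 2, and at 1.01, 0.971 and 1.08 FPKM with control siRNA. Every siRNA 1 library was below and every siRNA 2 library above the control libraries. It fell by 0.97 ± 0.25 on the log2 scale with siRNA 1 (adjusted p = 0.0148), 1.96-fold lower, and rose by 0.94 ± 0.25 with siRNA 2 (adjusted p = 0.0126), 1.92-fold higher. The value with siRNA 1 was below that with siRNA 2 by 1.91 on the log2 scale (log2 difference -1.91 ± 0.26, adjusted p = 0.000524). Of all tested genes, 416 (3.24%) passed both tests in opposite directions, while 13.2% were higher and 12.6% lower with both.

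The counts behind SCHLAP1 were low. The libraries held 41, 60 and 78 counts with siRNA 1, 244, 236 and 210 with siRNA 2, and 101, 112 and 131 with control siRNA, about 46, 179 and 89 fragments per group. The ratio of fragments to control, scaled for depth, was 0.513 with siRNA 1 (95% exact counting interval 0.351 to 0.740) and 1.99 with siRNA 2 (1.54 to 2.60), and these intervals cover counting error only. In GENCODE release 29, 14.8% of its exon bases lie opposite exons of the RNA AC009478. That RNA had no counts in the siRNA 1 libraries, listed at 0.0001 FPKM, and was at 0.0001, 0.286 and 0.288 FPKM with siRNA 2 and at 0.211, 0.240 and 0.227 FPKM with control siRNA, and it was looked up after the values of SCHLAP1 were seen.

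PCA3 (ENSG00000225937, chromosome 9, 76691980 to 76863307, plus strand) was barely detected, and its counts were higher with siRNA 2. The libraries held 7, 6 and 8 counts with siRNA 1, 44, 31 and 41 with siRNA 2, and 8, 9 and 11 with control siRNA, about 5, 30 and 7 fragments per group. The siRNA 2 libraries were all above the rest, and the siRNA 1 libraries lay just below or at the control libraries. In the fit with the lower filter it rose by 1.93 ± 0.48 on the log2 scale with siRNA 2 (adjusted p = 0.012), and the siRNA 2 libraries, where it is high, were what took it past that filter. With siRNA 1 the value was -0.45 ± 0.49 (adjusted p = 0.554), and the difference of siRNA 1 from siRNA 2 was -2.38 ± 0.49 (adjusted p = 0.00648). The ratio of fragments to control was 4.24 with siRNA 2 (95% exact counting interval 1.83 to 11.4) and 0.708 with siRNA 1 (0.177 to 2.59). Without siRNA 2 replicate 1 the rise with siRNA 2 no longer passed (log2 fold change 1.81, adjusted p = 0.0515), and on log2(FPKM + 0.1) values with limma it did not pass either (adjusted p = 0.0578).

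PCGEM1 (ENSG00000227418, chromosome 2, 192749845 to 192776899, plus strand), an androgen-regulated RNA of prostate epithelium, was not expressed at a level that these libraries could measure. A single library, siRNA 2 replicate 1, held 13 counts, about 3 fragments, at 0.0956 FPKM. The other 8 libraries held no count, and PCGEM1 could not be compared between groups.

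MALAT1 (ENSG00000251562, chromosome 11, 65497688 to 65506469, plus strand), an RNA of nuclear speckles where splicing factors gather, did not pass the test with either siRNA. It was at 40.2, 41.7 and 28.2 FPKM with siRNA 1, at 54.5, 49.6 and 37.5 FPKM with siRNA 2, and at 55.0, 63.5 and 35.8 FPKM with control siRNA. The groups overlapped, and replicate 3 was the lowest library of each. Its log2 fold change of -0.51 ± 0.23 with siRNA 1 had an adjusted p of 0.116, and that of -0.18 ± 0.23 with siRNA 2 an adjusted p of 0.565. Without control replicate 3 the value with siRNA 1 was -0.71 and passed (adjusted p = 0.0329).

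NEAT1 (ENSG00000245532, chromosome 11, 65422774 to 65445540, plus strand), the scaffold RNA of paraspeckles, also did not pass with either siRNA. It was at 2.46, 2.16 and 2.25 FPKM with siRNA 1, at 1.80, 2.34 and 1.53 FPKM with siRNA 2, and at 6.62, 2.00 and 1.98 FPKM with control siRNA. Control replicate 1 stood far above all other libraries, and the rest overlapped. Its log2 fold change of -0.64 ± 0.43 with siRNA 1 had an adjusted p of 0.269, and that of -0.95 ± 0.43 with siRNA 2 an adjusted p of 0.1. Without control replicate 1 the values were 0.17 and -0.14, so the size and, with siRNA 1, the direction rested on that library. Without control replicate 2 the value with siRNA 2 was -1.22 (adjusted p = 0.0464) and without control replicate 3 it was -1.23 (adjusted p = 0.0469), fits in which the high library made up more of the control group.

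An exact permutation test per RNA was run on log2(CPM + 1), where CPM are counts scaled to library size, with the 6 libraries of both siRNAs against the 3 control libraries. The smallest 2-sided p that its 84 splits allow is 0.0238. PCAT1, PVT1, PCAT14 and DRAIC reached it, with differences of 1.90, 0.75, -1.85 and -1.87. The share of all genes that reach this p was not computed, so these results are a description only. The test also pools both siRNAs as alike, although PCAT1, PCAT14 and DRAIC differed between them in the edgeR fit. In the edgeR fits, which are another test, 13.2% of all tested genes were higher and 12.6% lower with both siRNAs. SCHLAP1, which went opposite ways, had p = 0.857, and PCA3, MALAT1 and NEAT1 had p = 0.476, 0.31 and 0.429 in the same exact test. For a single siRNA against control, the exact test of 3 libraries against 3 cannot give a p below 0.1.

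The libraries of the siRNA 1 and siRNA 2 groups did not overlap for 5 of the 9 RNAs, SCHLAP1, PCAT1, PCAT14, PCA3 and DRAIC, against 52.3% of tested genes. Of these RNAs, PCA3 lies below the filter behind that share. Of the 6 tested with the main filter 4 differed between the siRNAs, 3 higher and 1 lower with siRNA 1, against 39.5% of all tested genes, 20.6% higher and 18.9% lower, and 29.4% of the long noncoding RNA genes. KMT2C itself did not differ between the siRNAs at the threshold (log2 difference 0.17 ± 0.12, adjusted p = 0.309), at 1.87 ± 0.375 FPKM with siRNA 1 and 1.69 ± 0.0488 FPKM with siRNA 2.

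Coding genes beside the RNAs were listed as neighbours. PRUNE2, a gene of the opposite strand that holds PCA3 within its span, was at 0.937, 1.10 and 1.45 FPKM with siRNA 1, at 4.87, 4.72 and 4.59 FPKM with siRNA 2, and at 2.39, 3.11 and 2.41 FPKM with control siRNA. It fell by 1.21 ± 0.16 on the log2 scale with siRNA 1 (adjusted p = 0.000569) and rose by 0.79 ± 0.16 with siRNA 2 (adjusted p = 0.00364), with no overlap between groups. Of the PCA3 exon bases 7.48% lie opposite exons of other genes, PRUNE2 among them, and without stated strand the few PCA3 fragments cannot be told apart from PRUNE2 fragments there. UBE2E3, a ubiquitin-conjugating enzyme gene 50.3 kb from SCHLAP1, was at 9.10, 8.27 and 4.88 FPKM with siRNA 1, at 17.4, 17.2 and 17.1 FPKM with siRNA 2, and at 9.87, 10.2 and 10.8 FPKM with control siRNA. It rose by 0.69 ± 0.20 on the log2 scale with siRNA 2 (adjusted p = 0.0191). With siRNA 1 its value was -0.50 ± 0.20 (adjusted p = 0.0754), and the siRNAs differed (adjusted p = 0.00185). At both loci the RNA and the coding gene thus had their highest libraries with siRNA 2.

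TMEFF2, a membrane protein gene of prostate and brain, lies 555 kb from PCGEM1. It was at 1.96, 2.16 and 2.21 FPKM with siRNA 1, at 15.0, 17.1 and 17.6 FPKM with siRNA 2, and at 0.486, 0.521 and 0.255 FPKM with control siRNA. It rose by 2.29 ± 0.23 on the log2 scale with siRNA 1 (adjusted p = 0.000116) and by 5.23 ± 0.25 with siRNA 2 (adjusted p = 1.25e-06). TMEFF2 passed the filter through the siRNA libraries alone, where it is high. Its calls, also among the counts of neighbours below, are therefore a description only. PCGEM1 stayed without counts in 8 of 9 libraries. MYC, 53.1 kb from PVT1, was at 7.79, 9.15 and 7.85 FPKM with siRNA 1, at 7.43, 6.27 and 7.18 FPKM with siRNA 2, and at 3.98, 3.62 and 18.6 FPKM with control siRNA. Control replicate 3 was the highest of all 9 libraries and the other control libraries the lowest. MYC did not pass with either siRNA (log2 fold change -0.11 ± 0.56 and -0.39 ± 0.56, adjusted p = 0.888 and 0.595), and without control replicate 3 the values were 1.10 and 0.82 (adjusted p = 0.000486 and 0.000931).

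Near MALAT1, LTBP3, a gene 32.3 kb away whose product binds latent TGF-beta, fell by 0.53 ± 0.07 on the log2 scale with siRNA 1 (adjusted p = 0.000428) and by 0.20 ± 0.07 with siRNA 2 (adjusted p = 0.0332). FRMD8, 11.0 kb from NEAT1, did not pass with either (log2 fold change -0.12 ± 0.42 and 0.01 ± 0.42, adjusted p = 0.84 and 0.987). Of the 7 neighbours found in the table, 1 was higher and 3 lower with siRNA 1 and 3 were higher and 2 lower with siRNA 2, with medians of -0.50 and 0.01, where 41.7% and 49.3% of all tested genes passed. Without control replicate 1 or without control replicate 2, 3 rather than 5 passed with siRNA 2.

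**Figure D3:**
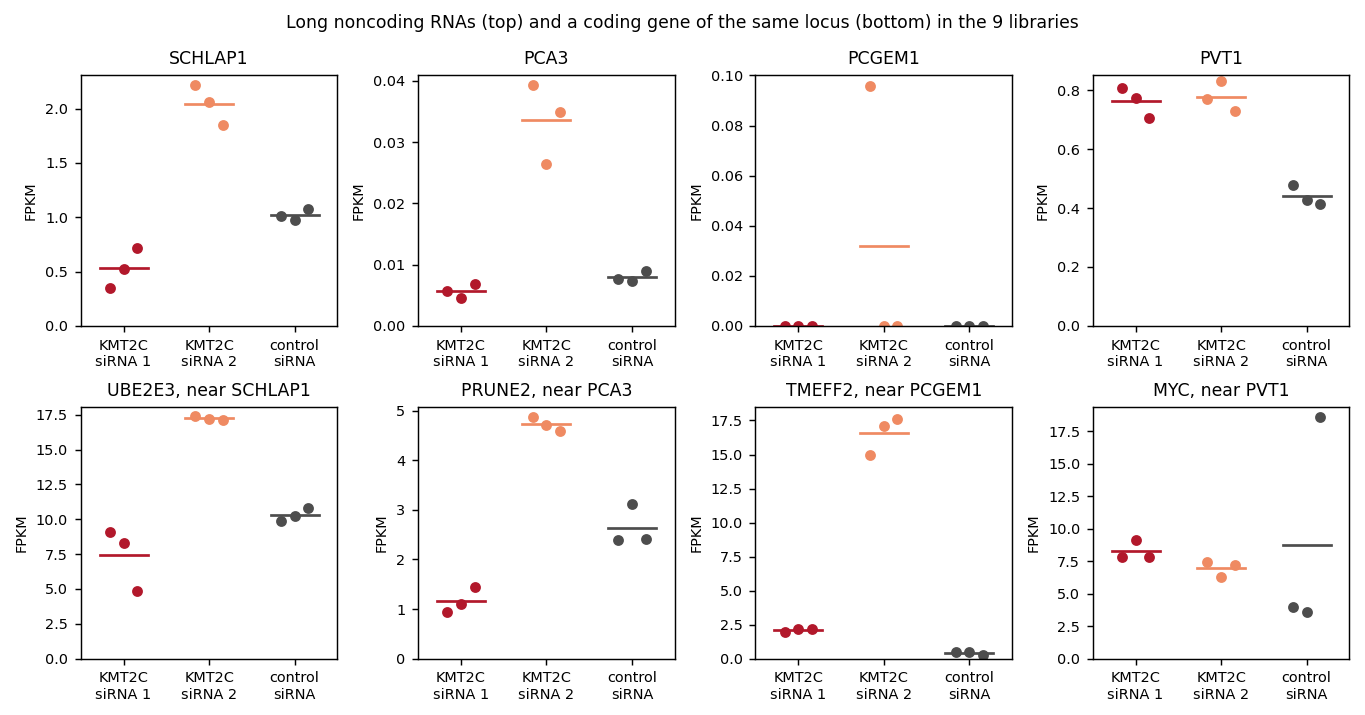
FPKM (vertical axes, linear, from 0, each panel on its own scale) of 4 long noncoding RNAs, above, and of a coding gene of the same locus, below, in the libraries of KMT2C siRNA 1, KMT2C siRNA 2 and control siRNA; points are libraries and lines are group means. SCHLAP1, UBE2E3, PCA3 and PRUNE2 are highest with siRNA 2, and the control group of MYC is split, with 1 library at 18.6 FPKM and the others at 3.98 and 3.62 FPKM.

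The surroundings of DRAIC were looked at after its values were seen. Within 500 kb of it 5 genes were tested, of which 2 were lower with siRNA 1 and 3 were lower and 1 higher with siRNA 2, where 41.7% and 49.3% of all tested genes passed. TLE3, a Groucho-family corepressor 205 kb away, averaged 7.90 FPKM with siRNA 1, 9.06 FPKM with siRNA 2 and 14.1 FPKM with control siRNA. It fell by 0.86 ± 0.06 on the log2 scale with siRNA 1 (adjusted p = 3.15e-05) and by 0.69 ± 0.06 with siRNA 2 (adjusted p = 4.31e-05). AC100826, an RNA of the opposite strand within DRAIC, was at 0.668, 0.165 and 0.376 FPKM with siRNA 1, at 0.0001 (no counts), 0.376 and 0.316 FPKM with siRNA 2, and at 3.03, 2.57 and 4.30 FPKM with control siRNA. It fell by 3.02 ± 0.85 with siRNA 1 (adjusted p = 0.0206) and by 3.85 ± 0.90 with siRNA 2 (adjusted p = 0.00684). AC100826 passed the filter through the control libraries alone, where it is high. Its calls, also among the counts above, are therefore a description only. Of the DRAIC exon bases 0.861% lie opposite exons of AC100826. RPLP1, a ribosomal protein gene 6.72 kb from DRAIC, averaged 445 FPKM with siRNA 1, 298 FPKM with siRNA 2 and 458 FPKM with control siRNA. It fell by 0.67 ± 0.22 with siRNA 2 (adjusted p = 0.0351), while its value with siRNA 1 was -0.07 ± 0.22 (adjusted p = 0.841). KIF23, a mitotic kinesin gene 14.5 kb away, did not pass with either (adjusted p = 0.39 and 0.551). GLCE, 191 kb away, went the other way, averaging 0.971 FPKM with siRNA 1, 1.96 FPKM with siRNA 2 and 0.617 FPKM with control siRNA. It rose by 1.60 ± 0.34 with siRNA 2 (adjusted p = 0.00432), while its value with siRNA 1 was 0.63 ± 0.33 (adjusted p = 0.167).

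Within 500 kb of PCAT14, also looked at after its values were seen, 18 genes were tested, of which 1 was higher and 3 lower with siRNA 1 and 5 were higher and 5 lower with siRNA 2, against the same 41.7% and 49.3% of all tested genes. The gene for the SWI/SNF subunit SMARCB1, 240 kb away, did not pass with either (log2 fold change -0.09 ± 0.21 and -0.29 ± 0.21, adjusted p = 0.754 and 0.277). Of the 2 tested genes within 500 kb of PCAT1, MYC and LRATD2, neither passed with either siRNA, and around PCGEM1 none of 7 genes reached the filter.

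For each RNA that passed the filter, the 2 genes with the most similar pattern were taken. Likeness was the root mean square difference of log2 CPM over the 9 libraries, each gene centred on its own mean. The picking used these same libraries, so fold changes and calls like those of the RNA follow from it. The adjusted p-values given for the picked genes are therefore a description only. PCAT14, whose own root mean square was 1.43, was closest to MUC13 at 0.17 and TTR at 0.19. MUC13, a transmembrane mucin gene, fell by 0.55 on the log2 scale with siRNA 1 (adjusted p = 0.0199) and by 3.08 with siRNA 2 (adjusted p = 2.27e-06). TTR, which encodes the thyroxine carrier transthyretin, fell by 0.39 (adjusted p = 0.0295) and by 3.00 (adjusted p = 8.4e-07). DRAIC, at 1.00 of its own, was closest to BEND4 at 0.22 and to the kinesin gene KIF13B at 0.24.

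PCAT1, at 1.11 of its own, was closest to the receptor genes GHRHR at 0.27 and AGTR1 at 0.28. GHRHR, for growth hormone-releasing hormone, rose by 2.35 and 1.04 on the log2 scale (adjusted p = 2.75e-05 and 0.00101), and AGTR1, for angiotensin II, by 3.03 and 1.64 (adjusted p = 2.57e-05 and 0.000297). SCHLAP1, at 0.82, was closest to GUCY1A1, a soluble guanylate cyclase subunit gene, and to PRUNE2, both at 0.19. GUCY1A1 rose by 1.20 with siRNA 2 (adjusted p = 0.00296) and was at -0.56 with siRNA 1 (adjusted p = 0.0903). PRUNE2 is thus the gene that holds PCA3 and also among the closest to SCHLAP1, which lies on another chromosome. MALAT1, at 0.35, was closest to C16orf72 and HOXA3, both at 0.16, and NEAT1, at 0.57, to BANF1 at 0.21 and TMEM51 at 0.23, none of which passed with either siRNA. All 9 libraries went into these distances, which are a description and have no test. The calls of the genes picked by them are likewise a description only.

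Proteins and complexes reported to work with these RNAs were counted from fixed lists. Of 12 genes for reported partners, 2 were higher and 4 lower with each siRNA, with medians of -0.14 for siRNA 1 and 0.03 for siRNA 2. Of all tested genes 41.7% passed with siRNA 1 and 49.3% with siRNA 2, so the partners as a list were near the background. IKBKB, a catalytic subunit of the IκB kinase that DRAIC is reported to bind, fell by 1.05 ± 0.12 on the log2 scale with siRNA 1 (adjusted p = 0.000261) and by 0.73 ± 0.12 with siRNA 2 (adjusted p = 0.00116). Of the SWI/SNF genes, SMARCC1 rose by 0.35 ± 0.05 and by 0.70 ± 0.05 and ARID1A fell by 0.33 ± 0.08 and by 0.51 ± 0.08 with siRNA 1 and siRNA 2. SMARCC2 fell by 0.30 ± 0.06 with siRNA 1 (adjusted p = 0.00307) and was at 0.14 ± 0.06 with siRNA 2 (adjusted p = 0.0762). EED, a subunit of Polycomb repressive complex 2, fell by 0.60 ± 0.08 with siRNA 2 (adjusted p = 0.000235) and was at 0.08 ± 0.07 with siRNA 1 (adjusted p = 0.421).

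Of 22 tested paraspeckle protein genes, 3 were higher and 5 lower with siRNA 1, and 3 were higher and 9 lower with siRNA 2, of which 4 were lower with both. The medians were -0.08 and -0.13, and the counts were near the 41.7% and 49.3% of all tested genes. SFPQ, a core paraspeckle protein gene, fell by 0.34 ± 0.05 with siRNA 1 and by 0.35 ± 0.05 with siRNA 2 (adjusted p = 0.000848 and 0.000517). WTAP fell by 0.23 ± 0.07 and by 0.53 ± 0.07. PSPC1, also lower with both, was outside the rule for named genes and fell by 0.47 ± 0.13 and by 0.68 ± 0.13. Leaving out siRNA 1 replicate 2, control replicate 2 or control replicate 3 left 5, 5 and 4 of the 8 calls with siRNA 1 in number.

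Of 23 tested genes for nuclear speckle proteins and for 3′ end processing of MALAT1, 3 were higher and 3 lower with siRNA 1, and 3 were higher and 1 lower with siRNA 2, with medians of -0.06 and 0.04, where 41.7% and 49.3% of all tested genes passed. RNPS1, a splicing activator, rose by 0.50 ± 0.07 and by 0.64 ± 0.07 on the log2 scale (adjusted p = 0.000932 and 0.000148). POP1, a subunit of RNase P, the enzyme that trims the MALAT1 3′ end, rose by 0.57 ± 0.17 and by 0.97 ± 0.17 (adjusted p = 0.023 and 0.00141). U2AF2, a splice-site recognition factor, fell by 0.17 ± 0.06 and by 0.49 ± 0.06 (adjusted p = 0.0485 and 0.000179). PRPF6 rose by 0.59 ± 0.07 with siRNA 2 (adjusted p = 0.000217), and SF3B1 fell by 0.29 ± 0.05 with siRNA 1 (adjusted p = 0.00199).

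Further long noncoding RNAs described in prostate cancer were listed, 64 names in all, of which 55 were in the table and 23 passed the filter. With siRNA 1, 6 were higher and 3 lower, and with siRNA 2, 6 were higher and 5 lower, with medians of 0.27 and 0.26. Of all tested long noncoding RNA genes 27% passed with siRNA 1 and 42.7% with siRNA 2, with medians of 0.11 and 0.21, and of all tested genes 41.7% and 49.3%. TMPO-AS1, an RNA beside the nuclear envelope gene TMPO, rose by 1.42 ± 0.14 and by 0.99 ± 0.14 on the log2 scale (adjusted p = 0.000138 and 0.000559). The snoRNA host genes GAS5 and SNHG12 rose with both, GAS5 by 0.58 ± 0.08 and by 0.34 ± 0.08 and SNHG12 by 0.79 ± 0.14 and by 0.70 ± 0.14. SNHG7 was the other to be higher with both, by 0.43 ± 0.09 and by 0.26 ± 0.09. MIR22HG, the host of miR-22, was the one lower with both, by 1.86 ± 0.42 and by 1.48 ± 0.41. SNHG7 and MIR22HG were named after their values were seen. MIR22HG averaged 0.503 ± 0.272 FPKM with siRNA 1, 0.674 ± 0.252 FPKM with siRNA 2 and 1.84 ± 0.362 FPKM with control siRNA. It passed the filter through the control libraries alone, where it is high. Its calls, also among the counts above, are therefore a description only.

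PCAT19 and PCAT7 were lower with siRNA 2. PCAT19 fell by 2.19 ± 0.17 on the log2 scale with siRNA 2 (adjusted p = 1.58e-05) and was at -0.11 ± 0.16 with siRNA 1 (adjusted p = 0.633), a difference between the siRNAs of 2.08 ± 0.17 (adjusted p = 3.71e-05). PCAT7 fell by 0.81 ± 0.15 with siRNA 2 (adjusted p = 0.00214) and was at -0.09 ± 0.15 with siRNA 1 (adjusted p = 0.657), and the siRNAs differed (adjusted p = 0.00559). TRPM2-AS rose by 0.80 ± 0.13 with siRNA 1 (adjusted p = 0.00136) and was at 0.28 ± 0.13 with siRNA 2 (adjusted p = 0.0984). SNHG16 rose by 0.74 ± 0.13 with siRNA 2 (adjusted p = 0.00136) and was at 0.35 ± 0.13 with siRNA 1 (adjusted p = 0.0502).

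**Figure D4:**
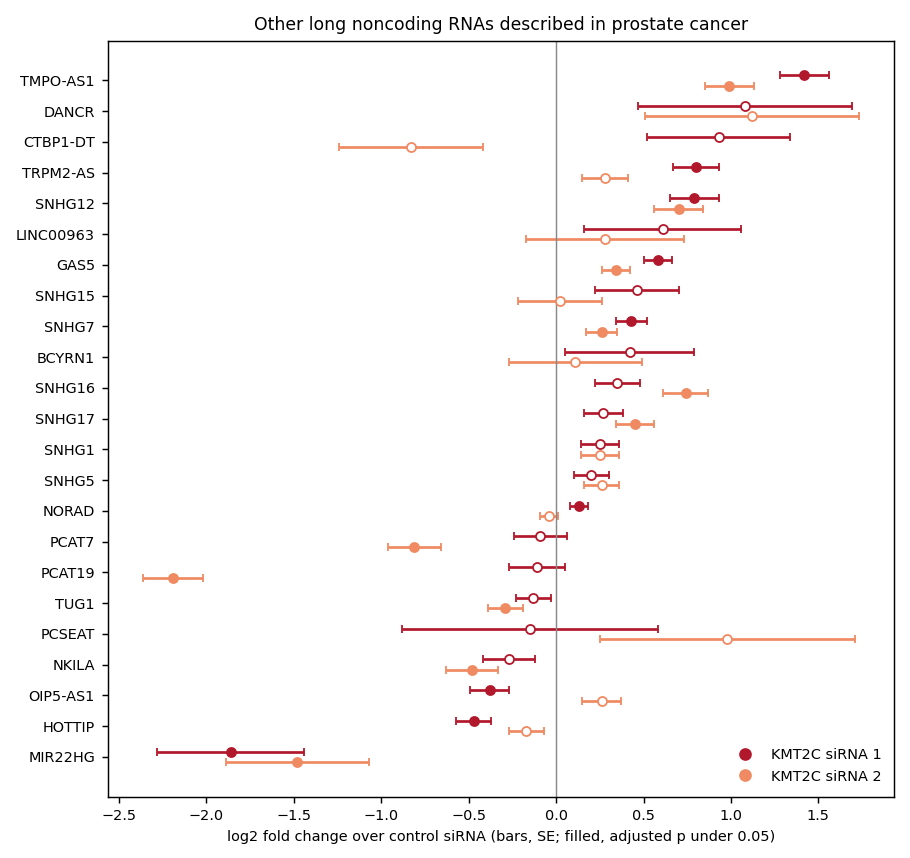
Log2 fold change over control siRNA (horizontal axis; bars are SE) of 23 further long noncoding RNAs described in prostate cancer with KMT2C siRNA 1 and KMT2C siRNA 2; filled points passed the test. TMPO-AS1 is at 1.42 with siRNA 1 and 0.99 with siRNA 2, MIR22HG at -1.86 and -1.48, and PCAT19 at -0.11 and -2.19. MIR22HG passed the filter through the control libraries alone.

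Since several of these RNAs are reported to respond to androgen, 11 tested androgen-induced genes were counted beside them. With siRNA 1, 1 was higher and 8 lower, and with siRNA 2, 2 were higher and 9 lower, with medians of -0.89 and -0.90, where 20.5% and 24.9% of all tested genes were lower. KLK3, which encodes prostate-specific antigen, fell by 2.94 ± 0.21 (siRNA 1) and by 4.40 ± 0.22 (siRNA 2) in log2 units. TMPRSS2 fell by 2.35 ± 0.05 and by 1.22 ± 0.05, and FKBP5, a co-chaperone gene of steroid receptors, rose by 1.02 ± 0.07 and by 1.55 ± 0.07. The androgen-induced genes and the 9 RNAs were not tested against each other.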

How the data were processed

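RNA was measured by sequencing in 9 VCaP libraries, 3 per group, and the values came from a single deposited table. Per the file headers it holds counts and FPKM for each library. The deposited count columns hold estimated counts, whole numbers that were not normalized, whose low values pile up at 4, 8, 12, 15 and 19, so that about 3.85 counts stand for 1 fragment. The deposited FPKM values are the authors' own, and a gene with no count is listed at 0.0001. Bowtie 0.12.2, hg38 and mm8 appear in the submitters' processing notes, without saying what each was used for. How reads were counted, with which annotation and strand setting, was not given in the sources used here. In the design text the RNA is called retinal, unlike in the sample labels. The library totals are in the report.

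Counts, rounded to whole numbers (which changed no value), were fitted with edgeR 4.0.16 (R 4.3.3, TMM scaling, quasi-likelihood F test, 1 mean per group, all 9 libraries, 2-sided), for genes with at least 1 FPKM in at least 3 libraries. An SE is the log2 fold change over the square root of F. PVT1 and PCA3 were fitted with filterByExpr. Exact permutation tests used log2(CPM + 1). Alternatives used other scalings and filters, limma 3.58.1, DESeq2 1.42.0, a replicate block and leaving out each library. In a simulation of siRNA 1 against control, all but 98 and 102 of 12830 genes were left unchanged. Of the 98 genes changed by 1 on the log2 scale 63.3% were called, and of the 102 changed by 2, 94.1%. In the data 41.7% of tested genes passed with siRNA 1, so these shares describe the simulated setting only.

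The 9 RNAs and all gene lists were chosen with earlier results of these data known, so a count over a list is a description. Named genes were the 9 RNAs, KMT2C, the locus neighbours, up to 4 genes per other list with the smallest adjusted p for each siRNA, and the 2 genes most like each RNA. Some genes that the rule takes are among the counts but not reported by name here. A gene outside this rule is marked in the text as picked with its values in view. Reference sequences came from GENCODE release 29 and RefSeq (GRCh38.p14).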

Additional observations from a re-analysis of the deposited data

Results flagged for a closer look

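The 2 siRNAs differed for 4 of the 6 RNAs of the main fit, and for PCA3 in the fit with the lower filter, tested as siRNA 1 against siRNA 2 in the same edgeR fit. On the log2 scale the difference was 2.72 ± 0.11 for PCAT14 (adjusted p = 1.65e-06), which fell with both siRNAs but further with siRNA 2. It was 1.54 ± 0.09 for PCAT1 (adjusted p = 5.65e-06), which rose with both but further with siRNA 1. It was -1.91 ± 0.26 for SCHLAP1 (adjusted p = 0.000524), whose libraries lay below control with siRNA 1 and above control with siRNA 2 in 3 of 3 libraries each. It was -2.38 ± 0.49 for PCA3 (adjusted p = 0.00648), on about 5 fragments with siRNA 1 and 30 with siRNA 2. PCA3 passed that filter through the siRNA 2 libraries where it is high, which favoured a difference, so its call is a description only. Both limma fits lost the call (adjusted p = 0.165 and 0.0517). The difference was 0.78 ± 0.20 for DRAIC (adjusted p = 0.0141). Among all tested genes 39.5% differed between the siRNAs, and 27.2% with the lower filter used for PCA3.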

How the results depend on the processing

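Over the alternatives run (4 other scalings or filters on the table, counts divided by the value of 1 fragment, a replicate block, DESeq2, limma on log2(FPKM + 1) and log2(FPKM + 0.1), fits of the 2 groups alone, other low-value filters and leaving out each library), 481 of 492 values of 8 RNAs stayed on their side of the threshold, 5 came to pass it and 6 no longer did; PCGEM1 gave no value. The sign differed from the reported one in 7 values, none of which passed the test in either fit: 5 of PVT1 between the siRNAs, NEAT1 with siRNA 1 without control replicate 1 (0.17) and MALAT1 with siRNA 2 without control replicate 2 (0.01). PCAT1, PCAT14 and PVT1, and SCHLAP1 and DRAIC against control, kept every call made in them. The 6 lost calls were PCA3 with siRNA 2 on log2(FPKM + 1) (0.04, adjusted p = 0.176), on log2(FPKM + 0.1) (0.31, adjusted p = 0.0578) and without siRNA 2 replicate 1, PCA3 between the siRNAs on log2(FPKM + 1) (-0.04, adjusted p = 0.165) and log2(FPKM + 0.1) (-0.34, adjusted p = 0.0517), and DRAIC between the siRNAs on log2(FPKM + 1) (0.30, adjusted p = 0.0998). Adding a pseudocount understates changes of RNAs at such levels. Leaving out single libraries moved MYC between -0.48 and 1.10 with siRNA 1 and between -0.76 and 0.82 with siRNA 2, the highest values without control replicate 3, the only library whose loss turned the sign with both siRNAs and whose own level was 18.6 FPKM. Leaving out single libraries gave 3 to 5 locus neighbours called with siRNA 2 and 4 to 9 paraspeckle genes called with siRNA 1. It gave 4511 to 5082, 5508 to 6706 and 4109 to 4981 genes called with siRNA 1, with siRNA 2 and between them. Upper-quartile scaling moved the median of all genes with siRNA 2 to 0.12 on the log2 scale, with 3900 genes higher and 2665 lower (59.4% of calls higher), against 3128 higher and 3200 lower (49.4%) with TMM scaling.

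Same-numbered libraries deviated from their group means with correlations of -0.04 to 0.07, so the numbers were not taken to pair libraries. With the replicate number as a block 5007, 6070 and 4766 genes were called, against 5349, 6328 and 5068 without it. The block also brought MALAT1 past the threshold with siRNA 1 (-0.49, adjusted p = 0.0065) and between the siRNAs (-0.34, adjusted p = 0.0273), and it lost no call of the 8 RNAs. Depth limits SCHLAP1, PCA3 and PCGEM1, and the gene model limits the levels of DRAIC, PVT1 and PCAT1.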

Other observations

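The siRNA 1 library with the most KMT2C left, replicate 3 at 2.28 FPKM, also had the highest siRNA 1 level of PCAT14 (76.7 FPKM), DRAIC (1.01 FPKM) and SCHLAP1 (0.721 FPKM), each the closest to the control libraries. The siRNA 1 library with the least KMT2C, replicate 1 at 1.54 FPKM, had the lowest level of these 3 RNAs. Levels of PCAT1 in the same libraries, at 5.24, 5.45 and 5.26 FPKM, did not follow that order. The mitochondrial share in replicates 1, 2 and 3, at 8.25%, 9.20% and 9.61%, and the total counts, at 68338530, 66189596 and 63747394, put the same 3 libraries in order. In siRNA 2 replicates 1, 2 and 3, KMT2C was at 1.72, 1.64 and 1.73 FPKM and PCAT14 at 10.8, 9.34 and 11.6 FPKM, while SCHLAP1, at 2.22, 2.06 and 1.85 FPKM, had another order. These are 3 libraries per group, the pattern was noticed in the data, and it was not tested.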
